A study of Mus musculus with 3 samples.

Results

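The caspases of this account are Casp1, Casp2, Casp6, Casp8 and Casp9, taken with Fadd, the adaptor that carries caspase-8 to death receptors, and Cflar, which encodes the caspase-8 relative FLIP. The 7 genes were picked by symbol, with no threshold on a value, from the 44788 gene rows of the count table, and each symbol matched 1 row. The data are 3 RNA-sequencing libraries of spleen T lymphocytes from BALB/c females aged 6 to 8 weeks. The cells were pulled out with beads against CD90.2, kept in RPMI 1640 with 2% fetal bovine serum and held for 10 h with LZ-8, a fungal protein from Ganoderma lucidum that acts on immune cells. All libraries carry that treatment, so each value below is a level under LZ-8, and what LZ-8 itself changes was not measured. Separate animals or cultures are not named for the replicates, so the spread between them, and any p-value on it, may be technical.

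Caspases are proteases made as inactive precursors. Ligand-bound Fas recruits FADD, FADD recruits caspase-8 through shared death effector domains, and caspase-8 then cuts downstream caspases or the BH3 protein BID. FLIP resembles caspase-8 but has no protease activity of its own, and it binds the same complex and limits or shapes caspase-8 activity. Caspase-9 is the initiator activated on APAF1 after cytochrome c leaves the mitochondria, caspase-6 is an executioner that cuts lamins, caspase-2 is activated on the PIDDosome, and caspase-1 is the inflammasome protease that matures interleukin-1 beta and interleukin-18. In T cells this set is known for activation-induced death through Fas and for the need of caspase-8 and FLIP in clonal expansion.

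The coding stretch around the catalytic cysteine shows what sets Cflar apart from the other members with a caspase fold. The stretches are 45 bases each, 5′ to 3′ on the plus strand, read from GENCODE M21 transcripts (GRCm38), and capitals mark the 5 codons of the active-site box.
Casp1: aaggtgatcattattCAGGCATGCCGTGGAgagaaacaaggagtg
Casp2: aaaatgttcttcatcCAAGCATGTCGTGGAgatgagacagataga
Casp6: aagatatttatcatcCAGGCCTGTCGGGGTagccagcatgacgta
Casp8: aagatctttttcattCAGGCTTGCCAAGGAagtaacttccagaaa
Casp9: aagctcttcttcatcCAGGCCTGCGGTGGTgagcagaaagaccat
Cflar: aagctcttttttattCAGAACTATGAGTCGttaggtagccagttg

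The box was found in frame in each of the 5 caspases and not in Cflar. In an alignment of the Casp8 and Cflar reading frames only 1 of the 5 codons paired before a gap opened, so the capitals in Cflar mark the 5 codons that start at the paired one, and none of them is a cysteine codon. Of 21407 coding genes read in frame, 81 (0.378%) hold the box, and 10 of those are caspases. The Casp8 stretch lies whole in exon 9 of its transcript (chr1:58844598-58844642) and the Cflar stretch whole in exon 10 (chr1:58752602-58752646). In Casp1, Casp2 and Casp9 the stretch is divided by an intron after its first 31 bases, with 14 bases in the next exon (exons 6 and 7 at chr9:5303744-5303774 and chr9:5304187-5304200, exons 8 and 9 at chr6:42276755-42276785 and chr6:42279777-42279790, exons 6 and 7 at chr4:141807232-141807262 and chr4:141811539-141811552). In Casp6 the break falls inside the box, after 18 bases, at the junction of exons 5 and 6 (chr3:129910681-129910698 and chr3:129912118-129912144).

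Cflar and Casp8 are also neighbours. Cflar (ENSMUSG00000026031.15) spans 58711508 to 58758884 on chromosome 1 and Casp8 (ENSMUSG00000026029.14) 58795374 to 58847503, both on the plus strand with 36489 bases between them. Casp1 spans 5298517 to 5307265 on chromosome 9, 1562 bases before Casp4. Casp2 lies on chromosome 6 from 42264985 to 42282508, Casp6 on chromosome 3 from 129901425 to 129914103 and Casp9 on chromosome 4 from 141793612 to 141815976. Fadd is on the minus strand of chromosome 7, from 144577318 to 144582463.

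The libraries held 13239482 to 15683820 counts, and a row for 18S ribosomal RNA took 5.83%, 2.37% and 0.992% of replicates 1, 2 and 3. Levels are CPM, counts per 1000000 of the library size after TMM (trimmed mean of M-values) scaling, as mean ± SD with n = 3 libraries. All 18 T cell markers checked averaged 10 CPM or more, and the top ones were Cd6 (887 ± 45.4 CPM) and Cd5 (651 ± 26.3 CPM). Summed markers of macrophages, neutrophils, dendritic cells, NK cells, erythroid cells and platelets each came to at most 0.296% of the summed T cell markers in every library. B cell markers reached 1.44% to 1.54% and stroma markers 0.882% to 1.07%. Most of each of these 2 sums came from 1 gene, Ighm (72.4 ± 4.77 CPM) and Pecam1 (55.9 ± 5.76 CPM), both named after their values were seen. No other marker of either list averaged 10 CPM or more.

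In the death receptor branch, Cflar stood first among the members on every length scale used. It had 3977, 5078 and 5759 counts in replicates 1, 2 and 3, or 312, 335 and 357 CPM, with a mean of 335 ± 22.2 CPM. Replicate 1 was lowest and replicate 3 highest, and the exact 95% counting intervals of those 2 libraries (303 to 322 and 348 to 366 CPM) did not overlap. Its mean was above 96.5% of the 13551 genes that averaged 1 CPM or more. CPM is not scaled for length, and per kilobase of merged exons Cflar was above 80.1% of those with a known length. Counts per gene do not separate the long form of FLIP from its short forms.

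Casp8, the initiator protease of the same complex, had 593, 706 and 869 counts, or 46.6, 46.6 and 53.8 CPM, with a mean of 49.0 ± 4.19 CPM. Replicates 1 and 2 were alike and replicate 3 was higher. Gm37760, annotated on the same strand, overlaps the span of Casp8, introns included, by 3841 bases and has no row of its own. What part its reads have in the Casp8 counts was not tested. Fadd, the adaptor, had 225, 295 and 266 counts, or 17.7, 19.5 and 16.5 CPM, with a mean of 17.9 ± 1.498 CPM. Its highest library was replicate 2 and its counting intervals overlapped in all 3 libraries. Fadd shares 4195 bases with Faddos, a gene annotated on the other strand and not analysed here, and the counting is not stated to use strand, so reads of the 2 could not be told apart.

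Casp9, the initiator of the mitochondrial branch, had 203, 201 and 225 counts, or 15.9, 13.3 and 13.9 CPM, with a mean of 14.4 ± 1.40 CPM. Casp6, the executioner that cuts lamins, had 138, 160 and 206 counts, or 10.8, 10.6 and 12.8 CPM, with a mean of 11.4 ± 1.20 CPM. Both stayed within a 1.21-fold range, Casp9 highest in replicate 1 and Casp6 in replicate 3. The digestive enzyme genes Cela2a and Ctrc overlap the last 1015 bases of Casp9 on the other strand and had at most 1 count in any library.

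Casp2, the PIDDosome protease, had 828, 984 and 1040 counts, or 65.0, 64.9 and 64.4 CPM, with a mean of 64.8 ± 0.325 CPM. The 3 libraries lay within 1.01-fold of each other, a coefficient of variation of 0.501%. The median over 9204 genes averaging 10 CPM or more was 8.67%, but those genes differ in counts and so in counting noise. In replicate order the counting intervals of Casp2 were 60.7 to 69.6, 60.9 to 69.1 and 60.6 to 68.5 CPM. Each is wider than the spread between the libraries, so this closeness does not show that Casp2 is unusually constant. Casp1, the inflammasome protease, had 90, 148 and 171 counts, or 7.07, 9.76 and 10.6 CPM, with a mean of 9.14 ± 1.84 CPM. It had the fewest counts of the members and the largest coefficient of variation, 20.1%, with replicate 1 below the others.

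**Figure D1:**
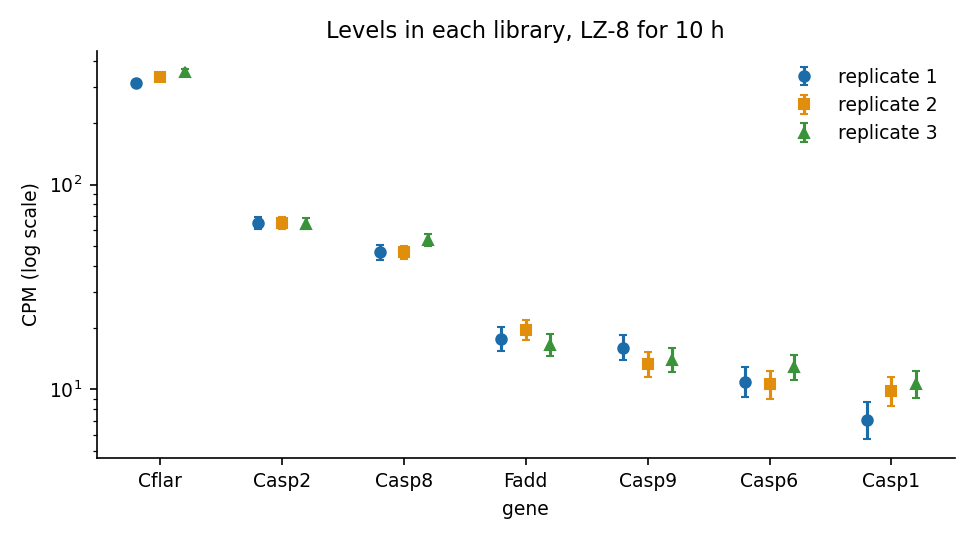
CPM of each member (log axis) in the 3 T cell libraries; points are libraries and bars are exact 95% Poisson intervals of the counts, which cover counting error only. Cflar sits at 312 to 357 CPM, Casp2 is level at 64.4 to 65.0 CPM, and Casp1 has its lowest value, 7.07 CPM, in replicate 1.

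Whether the members differed between the libraries by more than counting noise was tested with a chi-square test over all 15392 genes with an expected count of at least 5, adjusted by the Benjamini-Hochberg method. It compares libraries of 1 condition. Of the 7 members 3 passed an adjusted p of 0.05, beside 42.8% of all genes tested, so their share is that of the table as a whole. They were Cflar (adjusted p = 6.79e-09, 1.14-fold between highest and lowest library), Casp8 (adjusted p = 0.0122, 1.16-fold) and Casp1 (adjusted p = 0.0180, 1.498-fold), each highest in replicate 3. No member reached 1.5-fold, which 13.8% of genes tested did while passing. The adjusted p was 0.233 for Fadd, 0.2505 for Casp9, 0.234 for Casp6 and 0.984 for Casp2.

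The 3 calls rested on different libraries. Without replicate 3 the adjusted p of Casp8 was 0.997, and without replicate 1 that of Casp1 was 0.666 (0.0631 without replicate 3). Cflar passed whichever library was left out, at 4.07e-10 to 0.00714. The libraries also follow a trend with gene length and GC content, and it moves with the Cflar result. For a gene with the 12669 exonic bases and 44.4% GC of Cflar the trend over all genes gives -0.22 as log2 of replicate 1 over replicate 3, and the measured value for Cflar was -0.19. With that trend removed the adjusted p of Cflar was 0.555, beside 35.9% of genes tested that passed. For Casp8 the trend gives only -0.059 against a measured log2 ratio of -0.21, and its adjusted p with the trend removed was 0.0635. For Casp1 the trend gives -0.019 against a measured -0.58, and it still passed (adjusted p = 0.0320). For Casp2, not called, the trend gives -0.14 against a measured 0.014. Its adjusted p with the trend removed was 0.159.

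**Figure D2:**
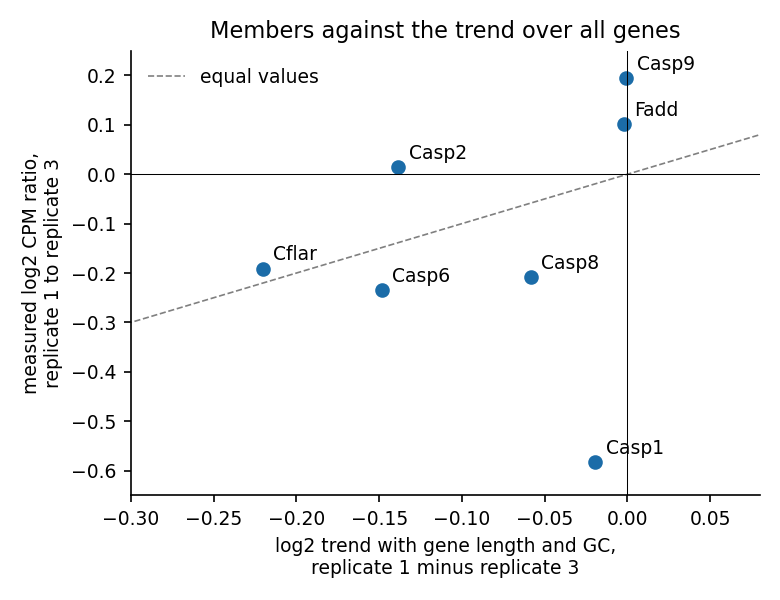
Measured log2 CPM ratio of replicate 1 to replicate 3 for each member (vertical) against the value that the trend with gene length and GC content over all genes gives for it (horizontal); the dashed line marks equal values. Cflar lies at -0.19 measured against -0.22 from the trend, and Casp1 far below the line at -0.58.

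The summed markers of macrophages, which also express Casp1, were lowest in replicate 1 as Casp1 was, at 13.7, 16.4 and 17.0 CPM in replicates 1, 2 and 3. Nearly all of that sum came from Mpeg1 (7.54, 9.89 and 10.2 CPM) and Cd68 (5.26, 5.67 and 5.76 CPM), the 2 of 13 markers that averaged 1 CPM or more. The other detected markers had at most 8 counts in a library, too few to show an order. Itgam (3, 8 and 7 counts) and Spic (1, 2 and 2) were also lowest in replicate 1. Adgre1, listed as Emr1 (3, 0 and 2), Cd14 (2, 1 and 2) and Lyz2 (2, 1 and 5) were not. Csf1r, Fcgr1, Mrc1, C1qa, C1qb and C1qc had 0 counts in every library. A low in replicate 1 was not particular to macrophage markers. Summed dendritic cell markers (10.4, 12.5 and 12.0 CPM) and platelet markers (7.46, 8.77 and 7.62 CPM) were also lowest there. The T cell, B cell, neutrophil, NK cell and erythroid sums were highest there, and the stroma sum was lowest in replicate 2. Within the T cell list Trac was lowest in replicate 1 (350, 410 and 457 CPM) and Cd6 highest. The cells had been selected with beads against CD90.2, a T cell surface protein. What part macrophages have in the Casp1 counts was not tested, and in bulk RNA fewer cells of a type and less RNA per cell cannot be told apart.

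Reads of close copies touch the pair on chromosome 1. The processed pseudogene Gm9845, on chromosome 3 from 39358306 to 39358903, is identical to Cflar transcripts over all 598 of its bases, and the RefSeq gene table also gives Gm9845 as a synonym of Cflar. The row Gm9845 had 605, 817 and 1091 counts, which is 13.2% to 15.9% of the counts of both rows together. Reads in those bases could not be assigned to 1 row from the sequence alone. With both rows summed Cflar was at 391 ± 32.2 CPM, highest again in replicate 3. The pseudogene Gm20257, upstream of Cflar, matches Casp8 at 94.2% over 380 bases, and its row had 34, 53 and 55 counts.

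Levels of different genes were compared per kilobase of gene length, and the length used decides part of the order. On merged annotated exons the order was Cflar (26.4 ± 1.75 CPM per kilobase), Casp8 (16.9 ± 1.45), Casp2 (9.18 ± 0.0460), Casp1 (6.11 ± 1.23), Fadd (4.58 ± 0.384), Casp9 (2.77 ± 0.269) and Casp6 (2.04 ± 0.215). Cflar therefore stood 1.56-fold above Casp8, with log2 ratios within libraries of 0.61, 0.72 and 0.60. Casp8 stood 6.12-fold above Casp9, the initiator of the mitochondrial branch, 1.84-fold above Casp2, the PIDDosome initiator, and 3.70-fold above its adaptor Fadd. Each of the 6 pairs of neighbours in this order had a log2 ratio of 1 sign in all 3 libraries with a mean above its SD. The order was sorted on these same 3 libraries, so the direction of those mean ratios follows from it and is no separate support. The narrowest pair was Casp1 over Fadd, at 0.061, 0.39 and 0.75, where the mean no longer exceeded the SD without replicate 2 or 3. A two-sided exact sign-flip test gave 0.25 for each of the 10 pairs compared, the smallest p that 3 libraries allow, so none can pass and adjustment leaves them there.

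**Figure D3:**
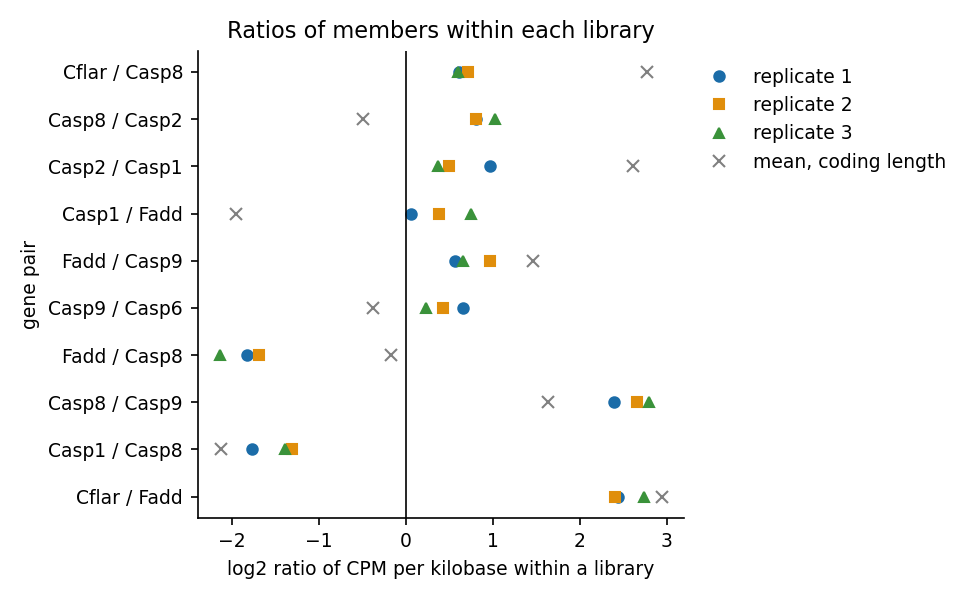
Log2 ratio of CPM per kilobase of merged exons for the 10 gene pairs within each library (coloured points), with the mean ratio per kilobase of coding length as grey crosses. Cflar over Casp8 lies at 0.60 to 0.72 in the 3 libraries and Casp1 over Fadd at 0.061 to 0.75, and coding length moves the mean of the first from 0.64 to 2.78.

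Merged exons count retained introns and long 3′ ends, and Cflar has 12.7 kilobases of them for 1.498 kilobases of coding sequence. Per kilobase of coding length Cflar was at 223 ± 14.8 CPM, 6.85-fold above Casp8 at 32.7 ± 2.79 CPM. On that scale Casp2 (45.7 ± 0.229 CPM per coding kilobase) stood above Casp8, Fadd (29.1 ± 2.44) above Casp1 (7.58 ± 1.53), and Casp6 (13.7 ± 1.45) above Casp9 (10.6 ± 1.03), the reverse of the order on merged exons. Fadd and Casp8 did not differ beyond their spread there, with a log2 ratio of -0.17 ± 0.23. Per kilobase of the longest coding transcript, a scale added after the values were seen, Casp8 and Casp2 were level, with a log2 ratio of 0.043. Cflar was first on all of these scales.

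**Figure D4:**
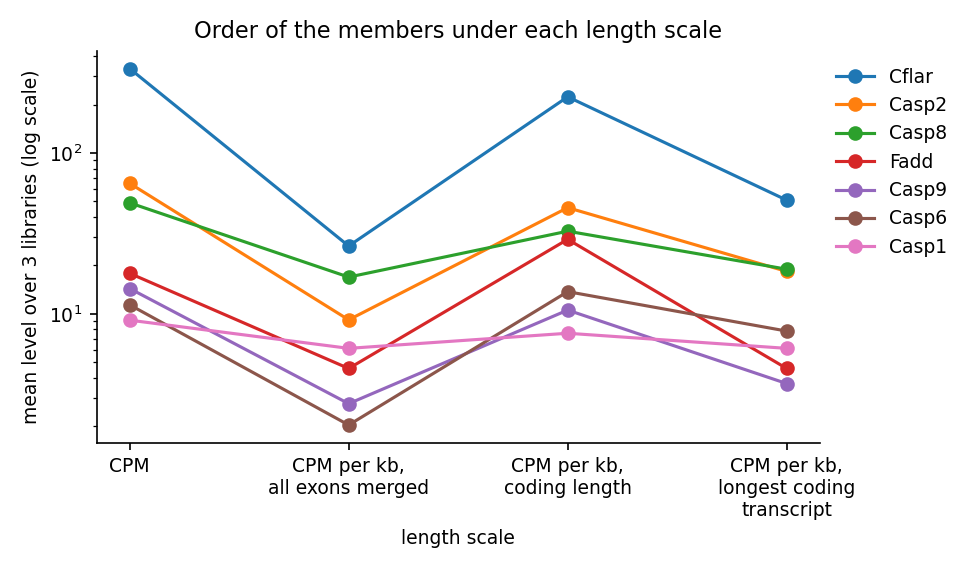
Mean level of each member over 3 libraries (log axis) as CPM and per kilobase on 3 length scales; lines join a gene. Cflar is highest on each scale, at 26.4 CPM per kilobase of merged exons and 223 per kilobase of coding length, while Casp2 and Casp8 change places.

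Other caspase genes were read from the same table. Casp4, the inflammatory neighbour of Casp1, had 182, 246 and 236 counts, or 14.3, 16.2 and 14.6 CPM, and did not pass the chi-square test (adjusted p = 0.474). Casp12 had 0 counts in every library, which allows up to 0.186 to 0.236 CPM at a floor of 3 counts. Casp14 had 0, 0 and 1 counts and Casp16 had 3, 5 and 3.

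Genes that act beside Casp8 and Fadd at death receptors mostly averaged 10 CPM or more. In the list of 21, 17 did, as did 9204 of the 13551 genes averaging 1 CPM or more. The list median was 43.7 CPM, beside 25.6 CPM for those 13551 genes and 2.89 CPM for all genes with a count. Per kilobase of merged exons the list median was 11.3 CPM, beside 7.91 for genes averaging 1 CPM or more. The highest by CPM were Rbck1 (298 ± 14.6 CPM) and Rnf31 (118 ± 4.25 CPM), subunits of the ligase that builds linear ubiquitin chains on the receptor complex. Of 20 tested 9 passed the chi-square test, and 1 of them differed by 1.5-fold or more. That was Tnf, the ligand of the TNF receptors, at 86.2, 74.0 and 57.2 CPM (adjusted p = 3.90e-18), highest in replicate 1, where Cflar and Casp1 were lowest. For this list and those below, what part the trend with gene length and GC content has in such orders was not tested. Fas, the receptor that recruits FADD, was at 19.6, 23.0 and 25.0 CPM and its ligand Fasl at 4.32, 4.75 and 6.07 CPM, both named after their values were seen.

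Upstream of Casp9, all 7 genes of the apoptosome and mitochondrial release list averaged 1 CPM or more and 6 averaged 10 CPM or more, with a median of 35.6 CPM. Diablo, which relieves caspases from inhibition by XIAP, was at 58.0 ± 5.47 CPM and Aifm1, a mitochondrial flavoprotein, at 48.7 ± 8.53 CPM. Of the 7, 6 passed the test, and Endog, the mitochondrial endonuclease, had the widest range, with 140, 130 and 98 counts and replicate 1 highest (1.81-fold, adjusted p = 0.000138). Apaf1, the platform of caspase-9, had 30.9, 38.1 and 37.8 CPM and Cycs, cytochrome c, 32.4, 26.6 and 23.0 CPM, both named after their values were seen. They ran in different orders over the libraries, and Casp9 itself did not pass.

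The inhibitor of apoptosis genes had the highest list median by CPM, 74.2 over 5 genes, and 3 of 5 passed. Per kilobase of merged exons their median was 11.28 CPM, beside 11.34 for the death receptor list. Birc6, a giant ubiquitin ligase, was at 572 ± 41.9 CPM and Birc3, which encodes cIAP2, at 165.5 ± 3.13 CPM. Xiap, a direct inhibitor of caspase-9, had 58.4, 76.0 and 88.2 CPM (adjusted p = 8.18e-18), with replicate 3 highest. In the PIDDosome list, whose protease is Casp2, Mdm2 was at 75.9 ± 2.73 CPM and Pidd1, listed in the table as Lrdd, at 33.3 ± 1.06 CPM. None of its 3 genes passed the chi-square test, and neither did Casp2.

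The inflammasome list around Casp1 was divided. Its 18 genes held 5 that averaged 10 CPM or more and 11 that did not reach 1 CPM in any library, with a median of 0.216 CPM. Those at 10 CPM or more were Nek7 (84.0 ± 13.3 CPM), a kinase that binds NLRP3, the PYRIN-binding adaptor Pstpip1 (58.3 ± 4.84 CPM), the pore-forming Gsdmd (40.9 ± 4.86 CPM), the DNA sensor Aim2 (28.2 ± 3.40 CPM) and the adaptor Pycard (17.99 ± 1.05 CPM). Nlrp3, Nlrp12 and Mefv had 0 counts in every library. Of the 2 cytokines that caspase-1 matures, Il1b had 1, 0 and 0 counts and Il18 0, 4 and 1. Of 8 tested 5 passed. Nlrp6, with 2, 24 and 13 counts, had the widest range of those tested (10.1-fold, adjusted p = 0.00122), on few counts. The lowest adjusted p was that of Nek7 (1.18e-12, 1.37-fold). Gsdmd, Aim2, Pycard, Nlrp3, Nlrp12, Mefv, Il1b and Il18 were named after their values were seen.

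Among genes whose products caspases cut or that act in cell demolition, 8 of 11 averaged 10 CPM or more and 5 of 10 tested passed. Acin1, a chromatin condensation factor, was at 458 ± 14.0 CPM and Sptan1, a spectrin cut by caspases, at 429 ± 46.3 CPM. Beside the 42.8% of all genes tested that passed, the lists ran from 0 of 3 (PIDDosome) to 6 of 7 (apoptosome and mitochondrial release).

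**Figure D5:**
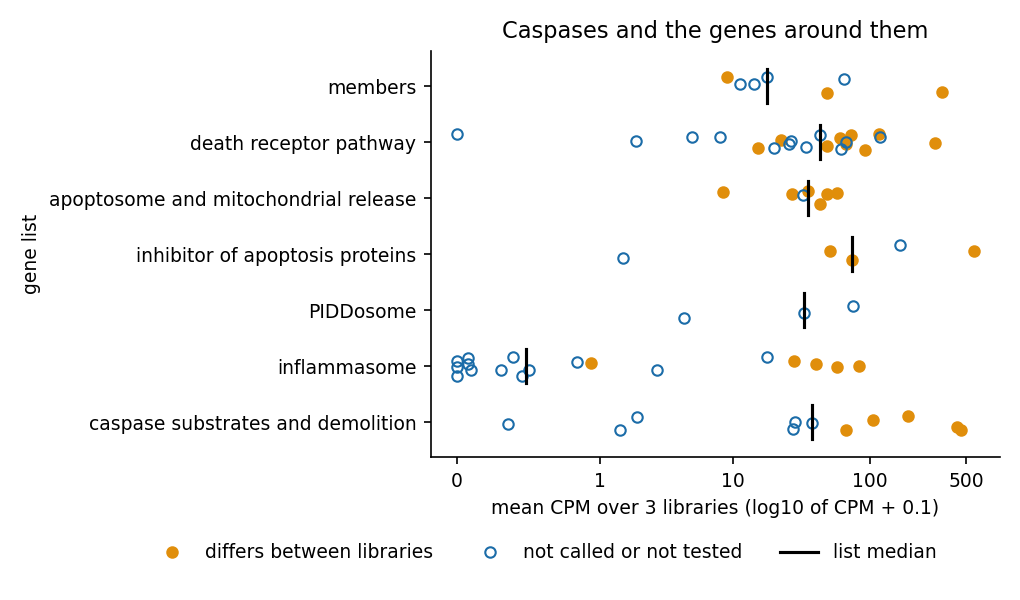
Mean CPM over 3 libraries (horizontal, log10 of CPM + 0.1) of each gene in the member and pathway lists; filled points passed the chi-square test between libraries, open points did not or were not tested, and bars are list medians. The inflammasome list has its median at 0.216 CPM, and the inhibitor of apoptosis list the highest by CPM, at 74.2, with no length scaling.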

How the data were processed

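Raw counts, 1 row a symbol and 1 column a library, were deposited by the authors as a single table. Per the submitters' processing notes the genome build was mm10. For the aligner, counter, annotation, strand setting and filters, the sources used here name none. The 3 libraries form 1 group, so no groups were compared. The members and gene lists were chosen with earlier results of these data known.

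Library sizes were scaled by TMM (edgeR 4.0.16, R 4.3.3). The chi-square test (scipy 1.17.1) compared the 3 counts of a gene with the effective library sizes where each expected count reached 5. Benjamini-Hochberg adjustment was over all 15392 such genes, with a threshold of 0.05. On simulated counts the test recovered 50% of 1.25-fold and 72% of 1.5-fold changes set in 1 library, with 6.06% false among the genes called. A gene that did not pass may thus still differ by such a fold. Intervals and the floor of 3 counts cover counting error only. Gene lengths and positions came from GENCODE M21 (GRCm38), where 32213 symbols matched, 1207 of them through older names in the RefSeq gene table (GRCm38.p6). Lengths were at hand for 94.7% of genes averaging 1 CPM or more. The trend with length and GC content was a robust fit of splines with 6 degrees of freedom over 10282 genes of at least 5 CPM. Copies were sought with blastn 2.17.0 at 90% identity or more over at least 300 bases, and reading frames were aligned with Biopython 1.88. Besides the members, the text names the 2 most abundant genes of each list, the other caspase rows (2 of them not reported here) and up to 3 genes per list that passed with a 1.5-fold range or more. Other names are marked where they stand. Alternatives were DESeq2 1.42.0 size factors, no scaling factor, totals without the 18S row, each replicate left out, other filters, thresholds and limits, the trend removed and other length scales. The sum with Gm9845 and the longest coding transcript were added after seeing the data.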

Additional observations from a re-analysis of the deposited data

How the results depend on the processing

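The count of members that differed between libraries, 3 of 7, was the same with DESeq2 size factors (42.5% of all genes tested passed), with no scaling factor (47.1%), without the 18S row (42.8%), with an expected count of at least 20 (50.4%) and with no filter (27.6%). It was 1 with the length and GC trend removed (Casp1, beside 35.9%) and 1 at an adjusted p of 0.01 (Cflar, beside 33.6%). With a replicate left out it ran from 1 to 3, with 2 without replicate 1 (24.4%), 3 without replicate 2 (41.7%) and 1, Cflar, without replicate 3 (22.8%). The fewer libraries there, and the stricter threshold, are part of how those alternatives are built.

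Within-library ratios cannot change with library scaling, so only length scales, left-out replicates and the sum with Gm9845 bear on them. With no length scaling, the log2 ratio of Casp8 to Casp2 turned to -0.41 and that of Casp1 to Fadd to -0.98. Per kilobase of coding length these were -0.49 and -1.96, that of Casp9 to Casp6 turned to -0.38, and that of Fadd to Casp8 was -0.17, within its spread. Per kilobase of the longest coding transcript Casp9 to Casp6 was -1.08 and Casp8 to Casp2 0.043, the latter within its spread. With a replicate left out, Casp1 to Fadd ranged from 0.22 to 0.57, and was within its spread without replicate 2 or 3. Of 61 ratios recomputed under those alternatives, 51 kept their direction and their side of the spread.

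Of 50 alternative member levels 45 moved by no more than 1 SD, and the rest were 4 of Casp2, whose SD is 0.325 CPM, and Cflar with Gm9845. Depth limits Casp1 most, at 90 to 171 counts. No paired analysis was possible because all libraries belong to 1 group.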
